A study of Mus musculus with 4 samples.

Results

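Fcer1g, Tyrobp, Hcst and Syk encode the small signalling chains of innate receptors and the kinase that binds them. These 4 genes were chosen by name, with earlier results of these data known. They were followed among the 17561 genes measured in 11754 CD8+ T cells. Values are counts-per-million (CPM) of a cluster's UMIs and the share of cells with a UMI. UMIs are unique molecular identifiers, each standing for 1 captured RNA molecule. The cells came from the BM of mice 4 weeks after SCT, in a myeloma model. Recipients on the C57BL/6 background, WT or transgenic for CRBN (cereblon, the target of lenalidomide), were given BM and T cells of matched donors. They received αTIGIT with vehicle, isotype control with lenalidomide, αTIGIT with lenalidomide, or isotype control with vehicle, with antibody from the day of transplant and lenalidomide or vehicle from day 14. CD8+ T cells were sorted at day 28 from 5 pooled mice per group, so each group was 1 library, and all recipients shared the transplant.

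The deposited cell table numbers the libraries 1 to 4 without naming a treatment. No comparison of treatments was made, and values are given by library number. Libraries 1 to 4 held 4237, 2003, 1725 and 3789 cells, 15556967 to 38440687 UMIs and a median of 7115 to 7669 UMIs per cell. With 1 library per group there is no test, and the 95% intervals (exact Poisson for CPM, exact conditional binomial for log2 ratios, Clopper-Pearson for shares) cover counting error only. A barcode sequence seen in more than 1 library occurred in 112 cells. The sort was for CD8+ T cells, and 99.88% of cells had a Cd3e or Cd3g UMI while 90.14% had a Cd8a UMI. The authors' 8 clusters were used, naive (Tn) and central memory (Tcm) cells, transitory, GzmB+ and TIGIT+ effectors (Teff), GzmA+ and TIM-3+ exhausted cells (Tex) and cycling cells. The deposited name of the last is cycling Tex. Since clusters were made from these same values, differences between clusters are descriptions.

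Receptors of NK cells, macrophages and mast cells often lack a signalling tail of their own and pair in the membrane with an adaptor. FcRγ, encoded by Fcer1g, and DAP12, encoded by Tyrobp, each carry an immunoreceptor tyrosine-based activation motif (ITAM), which recruits SYK or ZAP-70 once it is phosphorylated, whereas DAP10, encoded by Hcst, pairs with NKG2D and recruits PI3K through a Tyr-x-x-Met motif. Conventional T cells signal through the ITAMs of CD3 and through ZAP-70, while innate-like T cells are known for NK receptors and for FcRγ and DAP12.

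The motifs below are the bases on which the members differ in kind, read from the principal transcript of each gene in GENCODE M21 (GRCm38) and printed as spliced coding sequence on the gene's strand, 5′ to 3′. Capitals mark the tyrosine codons and, for the ITAMs, the leucine codon that closes each Tyr-x-x-Leu unit, or for Hcst the methionine codon.
Fcer1g ITAM (chr1:171229889-171230072, minus strand, exons 4 and 5 of 5, codons 65 to 79 of 86): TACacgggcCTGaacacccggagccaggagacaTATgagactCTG
Tyrobp ITAM (chr7:30415670-30417382, plus strand, exons 4 and 5 of 5, codons 92 to 106 of 114): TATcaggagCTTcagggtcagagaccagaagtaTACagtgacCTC
Hcst Tyr-x-x-Met motif (chr7:30417815-30417838, minus strand, exon 4 of 4, codons 70 to 77 of 79): agagtcTACatcaacATGcctggc

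The ITAM stretches of Fcer1g and Tyrobp both span an exon junction and have the same length of 15 codons, with 19 of 45 bases identical. A search for Tyr-x-x-Leu/Ile, 6 to 8 codons and again Tyr-x-x-Leu/Ile found 1 match each in Fcer1g and Tyrobp, 1 each in Cd3d, Cd3e and Cd3g, 3 in Cd247, and 0 in Hcst and in the 629 codons of Syk. The name of ITAM adaptor thus fits Fcer1g and Tyrobp only, and Hcst and Syk are described as their neighbours in the pathway. Tyrobp (ENSMUSG00000030579, chr7:30413760-30417585) and Hcst (ENSMUSG00000064109, chr7:30417712-30419854) lie tail to tail on opposite strands with 126 bases between their ends. Fcer1g (ENSMUSG00000058715) is at chr1:171229572-171234365 and Syk (ENSMUSG00000021457) at chr13:52583173-52648792.

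Fcer1g was highest in Tcm, with 263 CPM (256.6 to 269.1), and in GzmA+ Tex, with 232 CPM (220.6 to 244.2). In libraries 1 to 4 Tcm had 229, 315, 261 and 274 CPM of Fcer1g and GzmA+ Tex had 214, 263, 284 and 210.2 CPM. The order of these clusters was not the same in every library, since their intervals overlapped in libraries 1 and 3. Every other cluster was far lower in every library, from 73.3 CPM in GzmB+ Teff and 69.2 in TIGIT+ Teff, whose intervals overlapped, through 52.7 in TIM-3+ Tex, 42.3 in cycling cells and 26.0 in transitory Teff to 11.3 in Tn. At least 1 Fcer1g UMI was counted in 50.4% of Tcm cells and 67.95% of GzmA+ Tex cells against 3.88% of Tn cells, the lowest share of any cluster. After each cell was thinned at random to 2500 UMIs these shares were 35.1%, 38.0% and 1.94%. The table holds no cell type that lacks T cell transcripts, so Tn, in which a median cell had 7834 UMIs against 7507 over all cells, is the nearest to a background.

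Tyrobp was highest in GzmA+ Tex, with 209 CPM (197.9 to 220.3), followed by Tcm with 160.0 CPM (155.1 to 164.9). GzmA+ Tex had 211, 265, 211 and 163 CPM of Tyrobp in libraries 1 to 4, above Tcm in libraries 1, 2 and 3 and with an overlapping interval in library 4. Tcm had 172, 134, 91.7 and 178 CPM, so its Tyrobp varied more between libraries than its Fcer1g. GzmB+ Teff had 64.7 CPM with the same split of libraries, at 75.5 and 89.2 CPM in libraries 1 and 4 against 31.9 and 35.6 CPM in libraries 2 and 3. The remaining clusters lay between 36.8 CPM in TIGIT+ Teff and 9.08 CPM in Tn, and TIGIT+ Teff and TIM-3+ Tex did not differ beyond counting error. Tyrobp was counted in 60.1% of GzmA+ Tex, 30.1% of Tcm and 5.22% of Tn cells, or 27.9%, 19.2% and 1.49% after thinning.

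The split between libraries 1 and 4 and libraries 2 and 3 was seen across clusters when Fcer1g UMIs were divided by Tyrobp UMIs. Over all cells this quotient was 1.23 and 1.50 in libraries 1 and 4 and 1.89 and 2.31 in libraries 2 and 3. Library 3 exceeded both libraries 1 and 4 in 6 of 8 clusters and library 2 did so in 5 of 8. In Tcm the quotient was 1.33, 2.36, 2.84 and 1.54 in libraries 1 to 4. In GzmA+ Tex it was 1.01, 0.992, 1.35 and 1.29. Whether library, treatment or mice set this difference cannot be told apart, because each library is 1 pool and its treatment is not given.

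Hcst, the DAP10 chain, was found in most cells of every cluster. It had 1260 CPM in Tcm (1246 to 1274; libraries 1207 to 1305), and 522 CPM in cycling cells (513.5 to 530.9; libraries 491 to 567), which were lowest in every library. Transitory Teff, GzmA+ Tex, TIM-3+ Tex and GzmB+ Teff lay between 989 and 953 CPM of Hcst, where each interval overlapped the next, and TIGIT+ Teff (788 CPM) and Tn (759.5 CPM) also overlapped. Tcm ranked first in each library, though in library 3 its interval overlapped that of transitory Teff. At least 1 Hcst UMI was seen in 78.6% of TIGIT+ Teff and in 90.4% to 99.8% of the other clusters.

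Syk, the kinase that docks on phosphorylated ITAMs, was at the edge of detection. It had 8.74 CPM in GzmA+ Tex (6.62 to 11.3), from 57 UMIs in 48 of 571 cells, and 5.70, 11.7, 10.6 and 9.75 CPM in libraries 1 to 4. Over all libraries together no other cluster exceeded 2.34 CPM (TIGIT+ Teff, 15 UMIs), and Tcm had 1.91 CPM from 49 UMIs in 3418 cells. Tn had 3 Syk UMIs and transitory Teff 2. Below GzmA+ Tex, no cluster differed from the next in rank beyond counting error. Zap70, the kinase that serves the CD3 chains, had 257.5 CPM in GzmA+ Tex, 223 in Tcm and 144 in Tn.

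**Figure D1:**
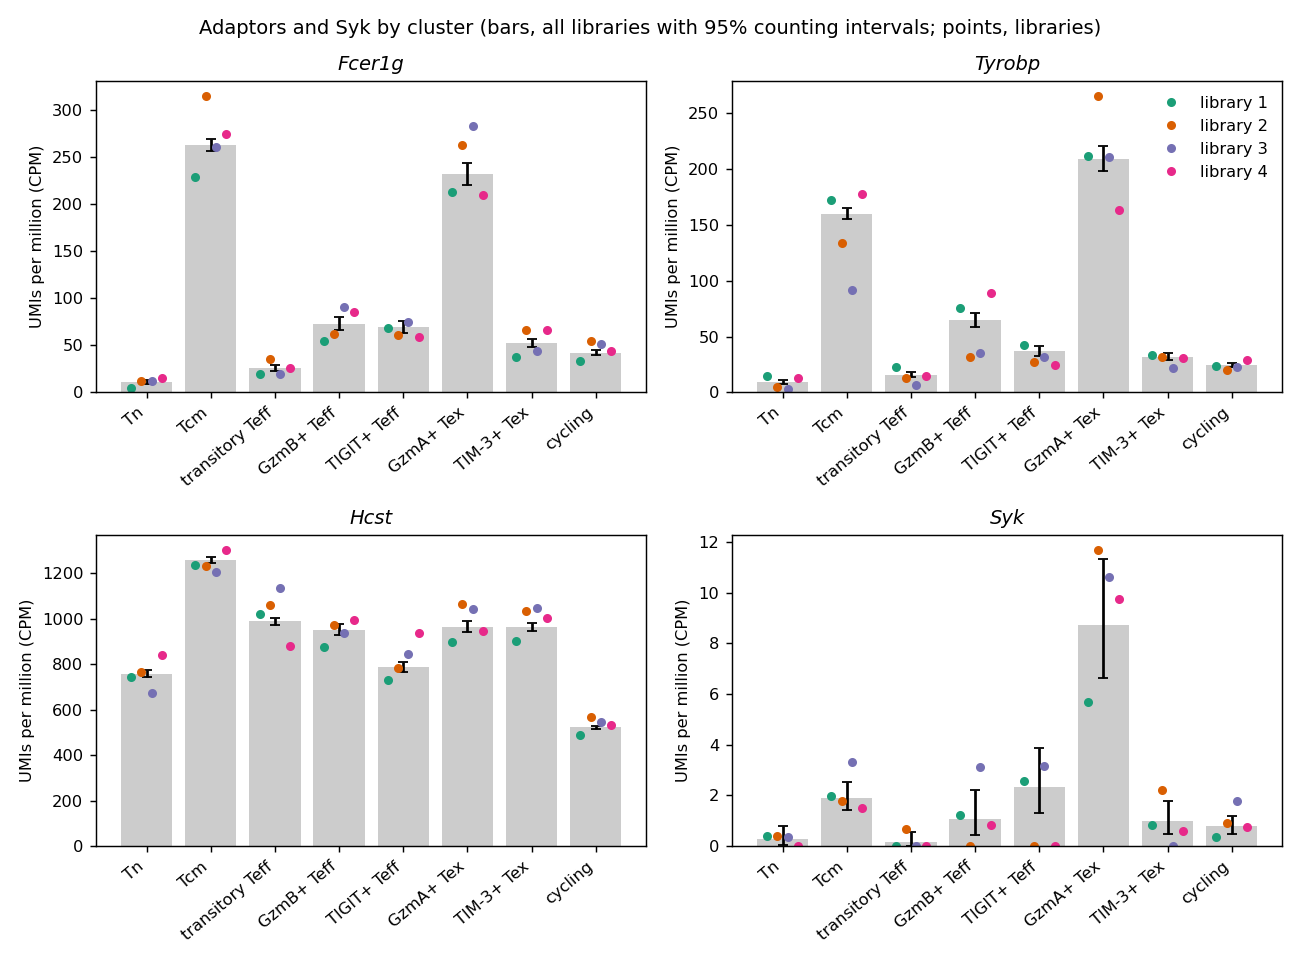
CPM of Fcer1g, Tyrobp, Hcst and Syk (y axes, linear from 0) in the 8 clusters (x axes); bars are all libraries together with 95% Poisson intervals and points are libraries 1 to 4. Fcer1g and Tyrobp stand out in Tcm and GzmA+ Tex, Hcst is present throughout with its highest bar in Tcm and its lowest in cycling cells, and the Syk bar exceeds 2.34 CPM only in GzmA+ Tex.

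Most UMIs of both ITAM adaptors came from Tcm cells, which held 59.6% of Fcer1g and 55.4% of Tyrobp UMIs but 24.2% of all UMIs. Relative to Tn, the log2 ratio of Tcm was 4.54 for Fcer1g (4.28 to 4.81; libraries 5.61, 4.67, 4.45 and 4.17) and 4.14 for Tyrobp (3.85 to 4.44; libraries 3.54, 4.80, 4.94 and 3.77). Hcst differed by 0.73 (0.70 to 0.77), and Syk by 2.80 (1.17 to 5.12) on 49 against 3 UMIs. Among 2611 genes with at least 50 CPM on 1 side, 75 were over 2-fold higher in Tcm, or 2.87%, and these included 2 of the 3 members that reach this level. With 10 CPM added to both sides Fcer1g ranked 1 and Tyrobp 4 of all of them. Ranks 2, 3 and 5 were held by the NK receptors Klrb1c (NK1.1), with 242 against 10.5 CPM, Klra7, a Ly49 receptor, with 317 against 24.5 CPM, and Klrk1 (NKG2D), with 489.6 against 62.9 CPM. The lowest genes were Il7r (25.5 against 395 CPM), Dapl1 (21.2 against 228 CPM) and Ccr7 (26.3 against 226 CPM). The paper ties Il7r to the upkeep of memory T cells, and central memory is the authors' name for this cluster.

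The receptors that pair with these adaptors were differently placed. Of the 13 listed partners of DAP12 only Klrk1 and Klrc2 (NKG2C) reached 50 CPM in Tcm, and both were over 2-fold higher than in Tn, Klrc2 with 93.7 against 12.6 CPM. The 13 partners together had 595 CPM in Tcm (libraries 452 to 636) and 83.5 CPM in Tn (63.5 to 101). In mice a form of NKG2D pairs with DAP12 as well as with DAP10, so Klrk1 stands in the DAP10 list too. There the signalling genes Pik3cd, with 201 against 197 CPM, Grb2, with 117 against 109, and Pik3r1, with 88.2 against 64.2, moved little, and Klrk1 alone of 5 was over 2-fold higher. The listed partners of FcRγ do not include Klrb1c, whose product NK1.1 also couples to FcRγ. Of the 13 listed, 9 are in the table, and in Tcm they sum to 6.17 CPM against 1.28 CPM in Tn. Most of this was Ncr1, which encodes the NK receptor NKp46, with 126 UMIs or 4.92 CPM in Tcm and 0 UMIs in Tn. Fcgr3, the low-affinity Fc receptor of NK cells and myeloid cells, had 0.858 CPM in Tcm and 0.826 CPM in Tn. Downstream, 0 of 13 genes of the SYK signalling list with at least 50 CPM were over 2-fold higher, with Lyn at 23.0 against 1.65 CPM and Plcg2 at 12.6 against 2.29 CPM below that level.

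Tcm cells carried the wider markers of innate-like T cells. Of 11 such markers with at least 50 CPM, 10 were over 2-fold higher than in Tn, and the list of 18 summed to 4498 against 1253 CPM. The NK cell list summed to 906 against 188 CPM with 3 of 4 genes over 2-fold, and the γδ T cell list to 150.3 against 31.3 CPM, of which Tcrg-C2 had 60.0 and Tcrg-C4 51.7 CPM while Trdc, the δ chain constant region, had 7.73 against 7.80 CPM. T cell identity genes summed to 5313 against 5677 CPM, and 1 of 11 was over 2-fold lower. This was Cd8b1, the CD8β chain, with 217 CPM in Tcm against 1165 CPM in Tn, whereas Cd8a had 328 against 384 CPM. Macrophage and monocyte markers summed to 139 CPM in Tcm (libraries 132 to 148) and 104 CPM in Tn (101 to 112), with Cd14 at 0 in both, and Lyz2 was counted in 0.848% and 0.298% of cells. In cells without a Lyz2 UMI the log2 ratio of Fcer1g was again 4.54 and that of Tyrobp 4.15.

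Within Tcm the members were unevenly spread over cells. Among the 3389 Tcm cells without a Lyz2 UMI, 1713 had a Fcer1g UMI. Tyrobp was 242 CPM in these and 75.2 CPM in the other 1676, a log2 ratio of 1.69 (1.58 to 1.79; libraries 1.82, 1.11, 1.86 and 1.73). Only 2 of 2614 genes, or 0.0765%, were over 2-fold higher in the Fcer1g cells, and Tyrobp was 1 of them. The other was Klrb1f, an NK receptor family gene, with 52.7 against 22.6 CPM. Klra7 (391 against 239 CPM), Klrb1c (299.5 against 183 CPM) and Itga4, the integrin α4 chain (145 against 86.8 CPM), came next with log2 ratios of 0.71 to 0.74. After thinning, cells were regrouped by the Fcer1g UMIs left. Tyrobp was then counted in 28.3% of cells with and 14.3% of cells without a Fcer1g UMI, Ncr1 in 2.09% and 0.228%, and Hcst in 94.8% and 93.6%. Cd8b1 went the other way, with 154 CPM in the Fcer1g cells and 281 CPM in the rest. Macrophage markers summed to 142 and 133 CPM, and the median cell had 6916 UMIs with and 6992 without Fcer1g over all Tcm cells.

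A small number of Tcm cells carried a large part of the Tyrobp UMIs. Cells with 10 or more Tyrobp UMIs were 107 of 3418, or 3.13%, and held 37.5% of the cluster's Tyrobp UMIs, with up to 38 in 1 cell. They were 42, 12, 3 and 50 cells in libraries 1 to 4. Without them Tcm had 103 CPM of Tyrobp. Fcer1g was spread more evenly, with 99 cells at 10 or more UMIs holding 17.4% of its UMIs.

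The 3389 cells were then divided by both adaptors, a description added after the data had been seen. Neither was counted in 1319 cells, Fcer1g only in 1049, Tyrobp only in 357 and both in 664, and 106 cells had 10 or more Tyrobp UMIs. These 106 are also counted in the classes with Tyrobp only or both, and 90.6% of them had a Fcer1g UMI. They held 58 Ncr1 UMIs, beside 92 in the whole class with both, so its Ncr1 value is not independent of theirs. Ncr1 had 0.940 CPM in the first class, 2.07 with Fcer1g only, 3.18 with Tyrobp only and 17.6 (14.2 to 21.6) with both. In the cells with 10 or more Tyrobp UMIs it had 69.4 CPM (52.7 to 89.7), at 45.6, 142, 0 and 78.9 CPM in libraries 1 to 4, where library 3 held 3 such cells. Gzmb (granzyme B) had 97.3, 103, 133, 174 and 242 CPM in the same order of classes, and Klrb1c 173, 276, 217, 334 and 410.5 CPM. Cd8b1 was 294 CPM without either adaptor, 147 with Fcer1g only, 239 with Tyrobp only and 164 with both. Hcst over all libraries together stayed between 1169 and 1299 CPM. Syk had 0.940 CPM without either adaptor and 4.40 CPM with both. A TCR was called in 81.2% of cells with neither adaptor, 74.7% with both and 67.9% of those with 10 or more Tyrobp UMIs, with medians of 6832 to 7107 UMIs.

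**Figure D2:**
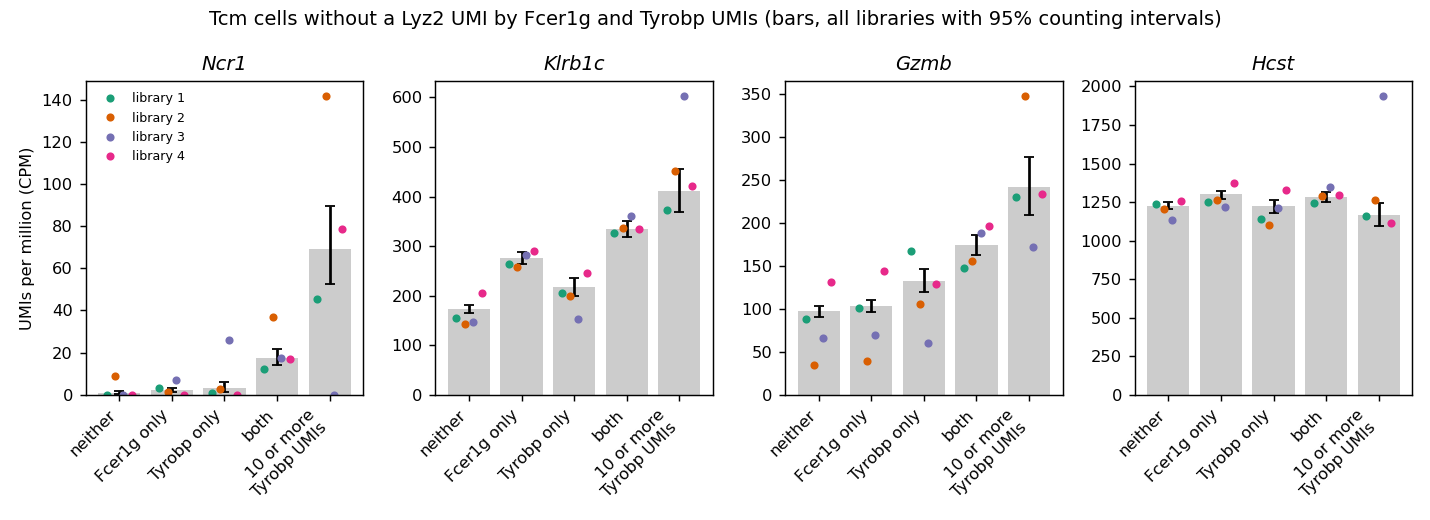
CPM (y axes, linear from 0) of Ncr1, Klrb1c, Gzmb and Hcst in Tcm cells without a Lyz2 UMI, by the Fcer1g and Tyrobp UMIs of the cell (x axes); bars are all libraries with 95% Poisson intervals and points are libraries 1 to 4. Ncr1 goes from 0.940 CPM with neither adaptor to 17.6 with both and 69.4 with 10 or more Tyrobp UMIs, while the Hcst bars stay between 1169 and 1299 CPM. Cells of the last class are also counted in Tyrobp only or both.

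Against the Fcer1g only class, the cells with 10 or more Tyrobp UMIs were led by Ncr1, with a log2 ratio of 5.07 (4.25 to 5.97), Klrb1a, an NKR-P1 receptor, with 58.6 against 9.31 CPM, and Klrb1f, with 112.5 against 42.1 CPM. Cd244a, the NK receptor 2B4, and Gzmb followed with log2 ratios of 1.35 and 1.23. Ncr1 and Klrb1a were higher in 3 of 4 libraries and the other genes in 4 of 4. The lowest were Trbv16, a TCR β variable gene, with 57.4 against 164 CPM, Rgs10, with 15.6 against 55.7 CPM, and Ifi27l2a, with 95.7 against 188 CPM, each lower in 4 of 4 libraries. All these genes were picked from the same cells over all libraries together. Library 3 held at most 3 of the cells with 10 or more Tyrobp UMIs. The counts of libraries are therefore descriptions.

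In GzmA+ Tex (571 cells) the ITAM adaptors stood well above the other Teff and Tex clusters (4495 cells). Here and below these are transitory, GzmB+ and TIGIT+ Teff and TIM-3+ Tex, and the 1928 cycling cells, deposited as a Tex cluster, are left out. Fcer1g had 232 against 49.7 CPM, a log2 ratio of 2.22 (2.12 to 2.32; libraries 2.31, 2.36, 2.25 and 1.99), and Tyrobp 209 against 32.9 CPM, a log2 ratio of 2.67 (2.56 to 2.78; libraries 2.47, 3.54, 3.11 and 2.18). Syk had 57 against 34 UMIs, a log2 ratio of 3.22 (2.58 to 3.88), and Hcst 0.04. Among 2959 genes with at least 50 CPM, 30 were over 2-fold higher, or 1.01%, and Fcer1g and Tyrobp were 2 of these. The leading genes were Lyz2, Cd74, Apoe, Igkv8-27 and C1qb, which are macrophage and immunoglobulin genes. The 17 macrophage and monocyte markers summed to 2199 CPM in GzmA+ Tex (libraries 1793 to 2378) against 351 CPM (301 to 384), none was at 0 in GzmA+ Tex, and 8 of the 9 with at least 50 CPM were over 2-fold higher. B and plasma cell markers summed to 185 CPM (libraries 110.5 to 566) against 104 CPM (87.9 to 121). The 2 of 7 basophil and mast cell markers in the table summed to 0.307 CPM.

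The receptors beside the adaptors differed from those of Tcm. In GzmA+ Tex the partners of FcRγ summed to 67.6 CPM (libraries 54.8 to 77.7) against 4.12 CPM in the other clusters, a log2 ratio of 4.04 (3.77 to 4.32). They were Fcgr3 with 28.7 CPM, Fcgr4 with 15.5, Fcgr1 with 8.74 and Clec4n, which encodes dectin-2, with 7.05 CPM, and Ncr1 had 4.14 CPM. The partners of DAP12 summed to 283 against 276.5 CPM, with Trem2, a macrophage receptor, at 7.21 against 0.304 CPM. NK cell markers summed to 457 against 449 CPM and innate-like markers to 3040 against 3191 CPM. In cells without a Lyz2 UMI the NK cell list had 474 against 446 CPM, a log2 ratio of 0.09 (0.01 to 0.17). The SYK signalling list had 0 of 13 genes over 2-fold higher and summed to 3069 against 3367 CPM.

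Lyz2, the lysozyme of macrophages and granulocytes, was counted in 269 of the 571 GzmA+ Tex cells, or 47.1% (39.8% to 53.3% in single libraries), against at most 5.91% in another cluster. Fcer1g had 289 CPM in cells with and 175 CPM in cells without a Lyz2 UMI, a log2 ratio of 0.72 (0.57 to 0.87). The library values were 269 against 141 CPM, 339 against 202, 291 against 279 and 285 against 137. The ratio in library 3 was within counting error (0.06, −0.32 to 0.44). Tyrobp had 245 against 173 CPM, a log2 ratio of 0.50 (0.34 to 0.66), and library 3 went the other way, with 144 against 257 CPM (−0.83, −1.34 to −0.35). In libraries 1, 2 and 4 Tyrobp was 252 against 157, 352 against 195 and 199 against 128 CPM. Hcst had 948 against 985 CPM and Syk 9.79 against 7.69 CPM on 32 and 25 UMIs, both within counting error. No member passed 2-fold, as 14 of 2902 genes or 0.482% did, led by Ifitm3 (110 against 15.7 CPM), Apoe (431 against 116 CPM), Alox5ap (51.7 against 8.61 CPM), Igkv4-91 and C1qc. The immunoglobulin genes Igkv8-27 (3.36 against 468.5 CPM) and Igha (0.612 against 147 CPM) were the lowest. Cells with a Lyz2 UMI had a median of 11620 UMIs and those without had 9628.

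**Figure D3:**
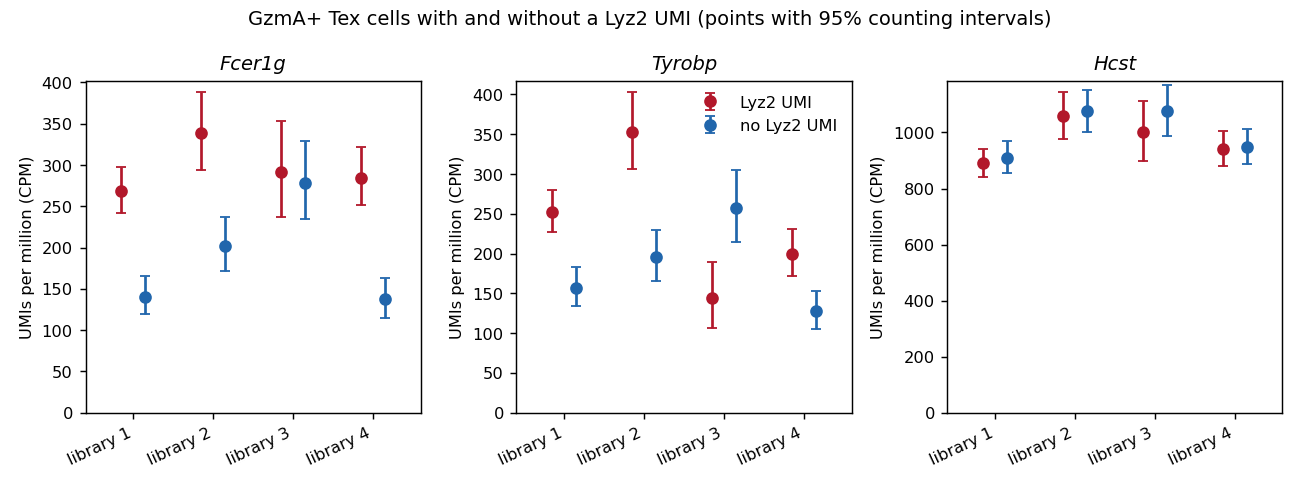
CPM (y axes, linear from 0) of Fcer1g, Tyrobp and Hcst in GzmA+ Tex cells with (red) and without (blue) a Lyz2 UMI in libraries 1 to 4 (x axes), with 95% Poisson intervals. Fcer1g and Tyrobp are higher with Lyz2 in libraries 1, 2 and 4, Tyrobp is lower in library 3 at 144 against 257 CPM, and the Hcst intervals overlap in each library.

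The 302 GzmA+ Tex cells without a Lyz2 UMI still had more of the ITAM adaptors than the 4372 such cells of the other Teff and Tex clusters. Fcer1g had 175 against 48.2 CPM, a log2 ratio of 1.86 (1.725 to 2.002), and Tyrobp 173 against 32.2 CPM, a log2 ratio of 2.43 (2.28 to 2.57). These were 2 of 19 genes over 2-fold higher among 2953, or 0.643%. Ranks 1 and 2 were held by the immunoglobulin genes Igkv8-27 (468.5 against 5.06 CPM) and Igha (147 against 0.489 CPM). B and plasma cell markers summed to 247 CPM (libraries 113 to 888) against 104 CPM (88.1 to 120). Syk had 25 UMIs on either side, or 7.69 against 0.719 CPM. A cell without a Lyz2 UMI was not free of other macrophage transcripts, as the macrophage list summed to 1240 against 342 CPM in the same cells and the FcRγ partners to 46.8 against 3.88 CPM. Where cells with any UMI of that list other than Cd74, Ctsb and Apoe were left out, 25 GzmA+ Tex cells remained, in which the whole list still summed to 992 CPM. In these Fcer1g had 93.2 CPM (54.3 to 149; 17 UMIs), a log2 ratio of 1.04 (0.26 to 1.73) to the other clusters under the same filter. Tyrobp had 32.9 CPM (12.1 to 71.6; 6 UMIs), a log2 ratio of 0.04 (−1.41 to 1.17), so that its difference was no longer detectable at this depth.

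GzmA+ Tex cells were then set into 4 bins of equal size by the share of their UMIs that the macrophage list took, again added after the data had been seen. The list stood at 516, 1035, 1910 and 6182 CPM from bin 1 to bin 4. Fcer1g had 133.5, 162, 201 and 486 CPM and Tyrobp 123, 92.1, 178 and 506 CPM in these bins. Syk had 4.03, 3.96, 10.95 and 18.25 CPM. Hcst went from 1095 to 827 CPM. In bin 4, which held 142 of the 571 cells, Fcer1g and Tyrobp were above and Hcst below the interval of every other bin, while the Syk interval overlapped that of bin 3. In bin 1 Fcer1g (133.5 CPM, libraries 97.2 to 200) and Tyrobp (123 CPM, libraries 89.4 to 186) were above every cluster other than Tcm and GzmA+ Tex as a whole, over all libraries together. The macrophage list, at 516 CPM in bin 1, was also above every other cluster, of which TIGIT+ Teff was highest at 442 CPM. The median cell had 11880, 11820, 9892 and 8070 UMIs from bin 1 to bin 4. The share of cells with a TCR call was 35.7%, 31.5%, 41.3% and 55.6% in the 4 bins. The part of macrophage RNA in these values was not tested.

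**Figure D4:**
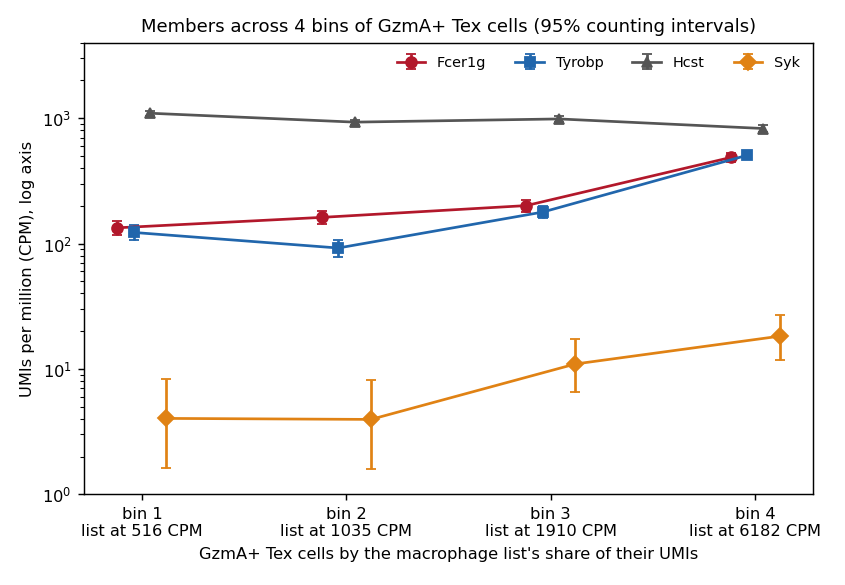
CPM (y axis, log scale) of the 4 members in GzmA+ Tex cells divided into 4 bins by the macrophage list's share of a cell's UMIs (x axis, with the list's CPM), with 95% Poisson intervals. Fcer1g and Tyrobp are near 500 CPM in bin 4 (486 and 506 CPM) against 133.5 and 123 CPM in bin 1, and Hcst is lowest in bin 4 at 827 CPM.

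The UMIs of a member per UMI of Lyz2 were not alike between clusters. For Fcer1g this quotient was 0.798 in GzmA+ Tex, between 6.06 and 30.75 in Tn, cycling and the other Teff and Tex clusters, and 224.5 in Tcm. It was at most 3.77 in GzmA+ Tex and at least 110 in Tcm in any library. Lyz2 UMIs were few in Tn (4) and in Tcm (30, from 1 to 18 in a library), so these quotients are coarse. In GzmA+ Tex they were 1897, of which single cells held 416 in library 2 and 212 in library 1. Cells in which Fcer1g and C1qa, a complement gene of macrophages, were both counted show the same contrast after thinning. C1qa was found in 46.6% of Fcer1g cells and 21.9% of the rest among GzmA+ Tex cells with Lyz2, and in 28.3% and 19.2% without Lyz2. In all Tcm cells it was found in 0.250% and 0.135%, or 3 cells on either side, and without thinning in 0.522% and 0.590%. In GzmA+ Tex as a whole, cells with a Fcer1g UMI had 256 against 81.0 CPM of Tyrobp, which was 1 of 11 genes over 2-fold higher among 2933, or 0.375%, and 2526 against 1308 CPM of macrophage markers.

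In TIM-3+ Tex, Fcer1g went with NK receptor transcripts. In TIM-3+ Tex without Lyz2, 166 cells had a Fcer1g UMI and 864 had none. Tyrobp was 86.1 against 14.4 CPM, a log2 ratio of 2.58 (2.23 to 2.93), within the 22 of 2920 genes, or 0.753%, that were over 2-fold higher. The genes beside it were Klra7 (170 against 27.3 CPM), Klrb1c (113.5 against 15.98 CPM) and Klra6, a further Ly49 receptor (57.4 against 7.66 CPM). Macrophage markers summed to 344.5 CPM with and 442 CPM without Fcer1g. Over all TIM-3+ Tex cells, those with a Fcer1g UMI were deeper, with a median of 13100 UMIs against 7356 in those without. A TCR was called in 19.0% of the cells with Fcer1g against 61.45% of those without. After thinning, a Fcer1g UMI was left in 81 of all 1056 TIM-3+ Tex cells. With cells regrouped in this way, Tyrobp was counted in 18.5% of cells with against 3.80% of cells without Fcer1g, and Klrb1c in 27.2% against 4.41%.

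Among cells with a TCR call, Fcer1g and Tyrobp also varied with the size of the TCR clone. Cells without a call are left out of this split, though they held 471 of 540 Fcer1g UMIs in TIM-3+ Tex (72.7 CPM). They also held 354 of 444 in TIGIT+ Teff and 780 of 1133 in cycling cells. A clone is the set of cells, over all libraries, with the same TCR genes and CDR3 bases of both chains, and cells of a larger clone share their origin. An additional β chain, as in a doublet, changes a cell's clone label, and doublets were not removed. More than 1 β chain was called in 27.3% of TIM-3+ Tex cells with Fcer1g against 13.1% without. The shares were 26.2% against 10.6% in TIGIT+ Teff and 22.0% against 13.7% in cycling cells, with overlapping intervals. The part of such cells in this split was not tested. In cycling cells Fcer1g had 84.0 CPM in the 242 cells that were the only cell of their clone and 11.2 CPM in the 753 cells of 164 larger clones, a log2 ratio of 2.91 (2.57 to 3.26; libraries 1.79, 2.64, 3.02 and 4.27). Tyrobp had 38.05 against 6.91 CPM there (libraries 2.42, 0.94, 1.78 and 3.64 as log2 ratios). In TIM-3+ Tex the Fcer1g values were 85.2 CPM in 39 cells (31 UMIs) and 11.2 CPM in 536. The log2 ratios were 1.04, 3.09, 3.18 and 4.12 by library, the first within counting error. TIGIT+ Teff had 124.5 CPM in 128 cells and 8.49 CPM in 236, GzmB+ Teff 86.3 against 32.5 CPM, and transitory Teff 26.9 against 9.03 CPM. Fcer1g was thus near its Tn level of 11.3 CPM in larger clones of 4 of these 5 clusters. Hcst showed no such split, with log2 ratios from −0.21 in GzmB+ Teff to 0.30 in cycling cells.

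The NK receptor Klrb1c was split in the same direction, with 46.25 against 3.80 CPM in cycling cells, 44.0 against 4.40 in TIM-3+ Tex and 160 against 10.4 in TIGIT+ Teff. Macrophage markers were lower in the clones of 1 cell, with 225 against 369 CPM in cycling cells, 346 against 495 in TIM-3+ Tex and 315 against 579 in TIGIT+ Teff. Cd8b1 was also lower in them, with 818 against 987 CPM in cycling cells, 737 against 1386 in TIM-3+ Tex and 794.5 against 1315 in TIGIT+ Teff. The median UMIs of the cells were 12150 and 11140 in cycling cells and 8250 and 5576 in TIM-3+ Tex, and after thinning the Fcer1g shares in cycling cells were 13.2% and 2.92%.

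Tcm and GzmA+ Tex differed from this pattern. In Tcm, 2475 of 2700 cells with a TCR were the only cell of their clone, and Fcer1g had 270.4 CPM in them and 233 CPM in larger clones. Tyrobp went the other way there, with 147 against 181 CPM, a log2 ratio of −0.30 (−0.47 to −0.11), and was higher in the clones of 1 cell in library 1 only. In GzmA+ Tex Fcer1g had 322 CPM in 103 such cells and 232 CPM in 131 cells of 62 larger clones, with 251.6, 180.1, 380 and 177.5 CPM in the larger clones of libraries 1 to 4. In those of more than 20 cells it had 256 CPM (93 cells of 28 clones). In the larger clones of GzmA+ Tex Klrb1c had 16.65 CPM against 124 CPM in the clones of 1 cell, while macrophage markers summed to 3040 and 2441 CPM. The larger GzmA+ Tex clones thus had Fcer1g and Tyrobp (195 CPM) beside Klrb1c far below its 242 CPM in Tcm, and the part of macrophage RNA in this was not tested.

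**Figure D5:**
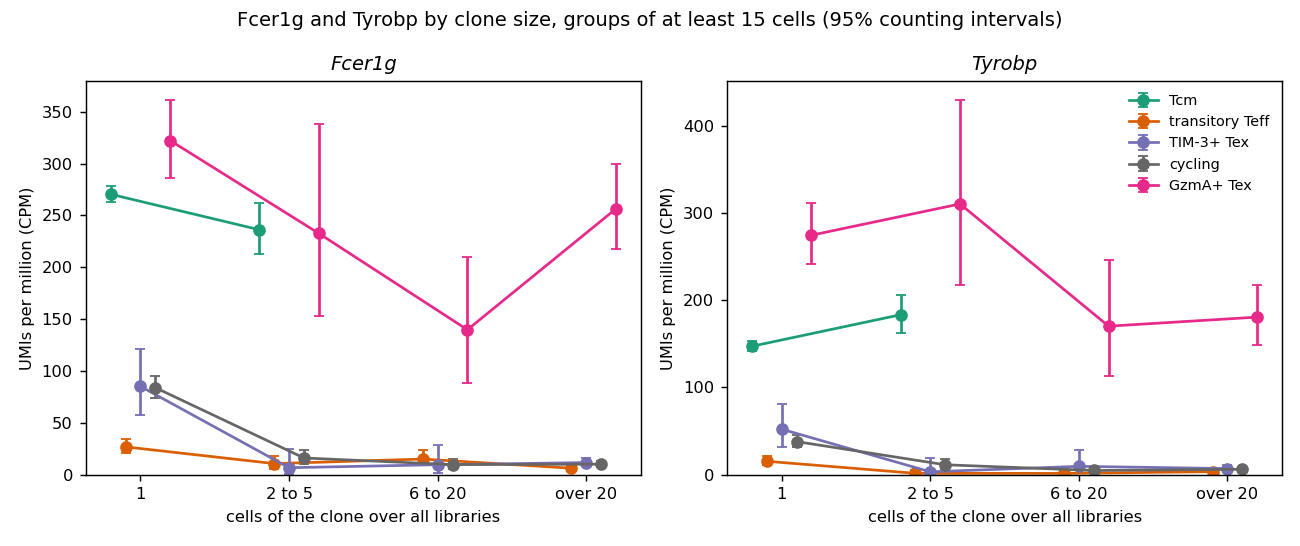
CPM of Fcer1g (left) and Tyrobp (right, both y axes linear from 0) by the number of cells of the clone over all libraries (x axes), in 5 clusters, for groups of at least 15 cells, with 95% Poisson intervals. Only cells with a TCR call are shown. In cycling cells, TIM-3+ Tex and transitory Teff Fcer1g is highest in clones of 1 cell (84.0, 85.2 and 26.9 CPM), while GzmA+ Tex remains at 139.8 CPM or above at every size.

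Over the 32 pairs of cluster and library, the genes with the most similar pattern to Fcer1g were Tyrobp (Pearson's r 0.92 of log2 CPM with 10 CPM added), Klrb1c (0.88), Klra7 (0.87), Cym (0.84) and Ccdc136 (0.83), out of 4076 genes ranked. Those most like Tyrobp were Fcer1g (0.92), Asb2 (0.81), Klrb1c (0.78), Klra7 (0.76) and Cym (0.75). Hcst had other neighbours, namely Ptpn18 (0.92), Ltb (0.81), Pfdn5 (0.80), Ctla2a (0.77) and Cd37 (0.77). Syk, whose low level leaves a pattern set mostly by GzmA+ Tex, was most like Ccl8 (0.89), Vcam1 (0.87) and the MHC class II genes H2-Eb1, H2-Ab1 and H2-Aa (0.86). Fcer1g and Hcst had 0.50 and Tyrobp and Hcst 0.47. The points share libraries, depth and the clusters made from these values, so these are descriptions without a test.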

How the data were processed

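CD8+ T cells of 4 pools were measured by 10x 5′ sequencing with TCR libraries. The authors processed reads with cellranger (Cell Ranger 7.00 and mm10 in the submitters' processing notes) and downsampled them between libraries. Their stated filter kept cells with 2500 to 25000 UMIs, a mitochondrial share under 15% and both Cd3e or Cd3g and Cd8a expressed. Read cell by cell, the last condition was not met by every deposited cell, as 90.14% had a Cd8a UMI. The deposited expression values are raw UMI counts per gene and cell, and the deposited UMI total of a cell is a count. The mitochondrial share that the authors deposited is a fraction. Cluster names and library numbers were taken from the deposited cell table, and clones from the TCR table that the authors made with scRepertoire. No removal of doublets is stated in the sources used here and none was done.

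UMIs were summed per cluster and library and divided by all UMIs of these cells. Symbols came from GENCODE M21, which named 17534 of 17561 genes. Shares of cells were also taken with every cell thinned to 2500 UMIs (seed 11). Genes entered counts of 2-fold differences with at least 50 CPM on 1 side, and rankings had 10 CPM added to both sides. Named genes were the 4 members, up to 4 genes of each marker or pathway list with the highest CPM, the 5 genes most like each member, and the 5 leading genes of the Lyz2 and Fcer1g splits. Some further highest or lowest genes of the cell comparisons are named as well. The members and lists were chosen with earlier results of these data known. The classes of Tcm cells, bins of GzmA+ Tex cells, split by clone of 1 cell, the genes given beside these, and the alternatives by Cd8a and by other cell types' transcripts were added after seeing the data. Alternatives changed depth, cells, labels, denominator, weights and the Lyz2 split and left out each library. Scripts were tested on simulated data. Tools were pandas 2.3.3, scipy 1.17.1 and numpy 2.4.6 in Python 3.11.15, with matplotlib 3.10.9 for plots.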

Additional observations from a re-analysis of the deposited data

How the results depend on the processing

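Of 202 recomputed ratios of the members, 148 moved by no more than their counting interval, 54 moved further and 0 changed sign. All values here are log2 ratios. For GzmA+ Tex against other effector and exhausted cells, thinning gave 2.77 for Fcer1g, 3.08 for Tyrobp and 4.42 for Syk, cells with a TCR call 3.13, 3.62 and 4.02, and cells with a Cd8a UMI 2.04 and 2.28 for the adaptors. Without any macrophage, B, plasma, neutrophil or dendritic list UMI, 11 GzmA+ Tex cells were left, with 2.58, 1.48, 0.31 for Hcst and 5.36 for Syk (1 UMI). These 11 cells are among the 25 described above, which held 17 Fcer1g and 6 Tyrobp UMIs. The adaptor ratios in them thus rest on few UMIs and are coarse. Libraries weighted equally gave 2.34 for Syk, and leaving out a library 2.46 to 2.85 for Tyrobp.

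For the Lyz2 split, TCR calls gave 0.49 for Fcer1g and 0.28 for Tyrobp, 2 or more Lyz2 UMIs 1.003 and 0.84, and any macrophage list UMI other than Cd74, Ctsb and Apoe 1.34, 2.70 and −0.31 for Hcst. Tyrobp was 0.30 with Cd8a cells and 0.33 with equal weights. Without single libraries Fcer1g was 0.61 to 0.88 and Tyrobp 0.40 to 0.70, both highest without library 3.

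Among cells without Lyz2, thinning gave 2.48 for Fcer1g, 2.80 for Tyrobp, 0.14 for Hcst and 5.18 for Syk, and TCR calls 2.91 and 3.49 for the adaptors. Cells with no macrophage list UMI other than Cd74, Ctsb and Apoe gave 1.04, 0.045 and 0.31 for Hcst. With no listed UMI of other cell types the values were again 2.58, 1.48, 0.31 and 5.36, from the same 11 GzmA+ Tex cells with few UMIs. Tyrobp was 2.16 with Cd8a cells and 2.60 with equal weights, where Syk was 2.22. Leaving out a library gave 1.74 to 2.02 for Fcer1g and 2.23 to 2.64 for Tyrobp.

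Of Tcm to Tn, Leiden numbers in place of names gave 3.86 for Fcer1g and 3.58 for Tyrobp, and cells without listed UMIs 5.73 for Fcer1g. Hcst was 0.78 after thinning, 0.59 with a denominator free of mitochondrial, ribosomal, TCR and immunoglobulin genes, and 0.69 to 0.76 without single libraries. Each group is 1 library, so treatments could not be tested. Clusters and cell classes are paired within a library, and their ratios by library are given as descriptions without a test. Syk rests on few UMIs, and the causes of these shifts were not tested.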

Other observations

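Beside the clusters named above, small sets of cells in GzmB+ Teff and GzmA+ Tex also held a large part of the Tyrobp UMIs. In GzmB+ Teff 13 cells with 10 or more Tyrobp UMIs held 39.8% of the cluster's Tyrobp UMIs, and in GzmA+ Tex 25 such cells held 43.7%, with up to 69 UMIs in 1 cell.

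A TCR call was less frequent in cells with a Fcer1g UMI in every cluster. The shares were 43.2% against 78.7% in transitory Teff, 55.2% against 71.9% in GzmB+ Teff, 24.1% against 50.2% in TIGIT+ Teff, 37.9% against 47.5% in GzmA+ Tex and 29.4% against 56.9% in cycling cells. In Tcm they were close, with 77.8% and 80.2%, and in Tn they were 76.9% of 52 cells and 85.8% of the rest. In TIGIT+ Teff the cells with Fcer1g had a median of 10430 UMIs against 4898.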
